A study of Mus musculus with 43 samples.

Results

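Cortical interneurons are the local inhibitory neurons of the cortex, and the genes described here are 10 markers used to recognise them and their main classes. They were chosen by symbol, though with earlier results of these data known, as Gad1, Gad2, Slc32a1, Pvalb, Sst, Vip, Cck, Npy, Reln and Calb2. All 10 are among the 23953 gene symbols listed for every library, and all 10 passed the filter on low values in both sets of neuron libraries, of which 12567 and 12239 genes were tested. The study sequenced RNA from mouse visual cortex in 43 libraries, 31 of them from nuclei sorted with an antibody to NeuN and 12 from microglia sorted by CD11b and CD45. The neuron libraries hold nuclear RNA and form 2 sets of 3 groups, with 40 Hz light flicker (gamma entrainment using sensory stimuli, GENUS) in 1 group of each set.

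In the CK-p25 set, CK control mice (n = 5 libraries), named wild type in the labels, stood against untreated CK-p25 mice (n = 5) and CK-p25 mice given 43 days of GENUS (n = 4). CK-p25 mice carry Camk2a-tTA and tetO-CDK5R1/GFP, so that excitatory neurons, through the Camk2a promoter, make p25, the cleaved form of a Cdk5 activator; p25 had been induced for 6 weeks. In the P301S set, wild type (WT) mice (n = 6) stood against untreated P301S mice (n = 6) and P301S mice given 22 days of GENUS (n = 5). P301S mice carry Tg(Prnp-MAPT*P301S)PS19, in which the Prnp promoter drives mutant human tau. Their age was 8 months. No age is stated for the control mice, nor how many mice a library holds. Nothing in the labels makes replicates separate animals, and a p-value here measures the spread between libraries, which may be technical.

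As background, interneurons make GABA with 2 glutamic acid decarboxylases, encoded by Gad1 and Gad2, and load it into synaptic vesicles with the transporter encoded by Slc32a1. The largest classes in mouse cortex are marked by parvalbumin (Pvalb), somatostatin (Sst) and vasoactive intestinal peptide (Vip). Pvalb cells fire fast and inhibit cell bodies, Sst cells inhibit dendrites, and many Vip cells inhibit other interneurons. Calretinin (Calb2), cholecystokinin (Cck), neuropeptide Y (Npy) and reelin (Reln) mark subsets within or beside these classes. Cck is also made by many excitatory neurons, so its level here is not that of interneurons alone. Fast-spiking Pvalb cells are known for a part in gamma rhythms, the frequency band at which GENUS stimulates.

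Sequence upstream of 3 peptide genes is shown because Vip and Npy were among the pairs of members that varied together most closely across libraries, and because Sst and Vip are textbook targets of cyclic AMP signalling through CREB, which binds the palindrome TGACGTCA or its shorter form TGACGTC. The Vip and Npy windows hold the 250 bases before the RefSeq start on build GRCm38.p6, and Sst is given by the 30 bases around its palindrome. All are written 5′ to 3′ on the gene's strand, with matches to TGACGTCA, TGACGTC and the TATA box letters TATAAA in capitals.
Sst, chr16:23890874-23890903, minus strand: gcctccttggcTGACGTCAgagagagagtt
Vip, chr10:5638968-5639217, plus strand: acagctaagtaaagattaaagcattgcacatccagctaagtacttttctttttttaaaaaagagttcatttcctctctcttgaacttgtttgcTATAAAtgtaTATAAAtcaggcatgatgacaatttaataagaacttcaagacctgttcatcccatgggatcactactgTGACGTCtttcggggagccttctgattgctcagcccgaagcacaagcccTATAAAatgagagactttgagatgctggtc
Npy, chr6:49822460-49822709, plus strand: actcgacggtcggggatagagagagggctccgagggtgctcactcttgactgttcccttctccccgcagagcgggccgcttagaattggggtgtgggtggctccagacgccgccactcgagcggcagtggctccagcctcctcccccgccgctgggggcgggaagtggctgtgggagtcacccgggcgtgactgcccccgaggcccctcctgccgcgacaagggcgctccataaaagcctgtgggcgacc

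Counted from -1 at the base before the start, the Sst palindrome began at -48 and the TGACGTC of Vip at -79. The Sst position holds for the RefSeq start only, since GENCODE places the start of Sst farther upstream. Vip also held TATAAA at -157, -147 and -30. The Npy window held none of the 4 motifs searched, the last being the E-box CACGTG, which was found upstream of Cck at -66 and of Reln at -71. Gad1 held TATAAA on the opposite strand at -141. Searched on both strands in 32851 RefSeq windows of the same length, TGACGTCA was held by 1.55%, TGACGTC (which TGACGTCA contains) by 2.78%, TATAAA by 12.4% and CACGTG by 6.02%. An entry was found for 9 of the 10 genes, with 2 windows for Pvalb; Calb2 had no entry. These matches describe letters, not binding.

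The sort could be checked against markers. Rbfox3, which encodes NeuN, was at 72.7 to 95.0 FPKM (fragment counts scaled to transcript length and library size) in the CK-p25 set and 89.2 to 114 in the P301S set, and at 0.0370 to 1.56 in microglia. Slc17a7, the vesicular glutamate transporter of cortical excitatory neurons, was at 88.4 to 127 and 106 to 155 FPKM, so the sorted nuclei hold excitatory neurons beside the interneurons. In microglia, Gad1, Gad2, Slc32a1, Pvalb, Vip, Reln and Calb2 were at most at 0.374 FPKM in every library. Between 12103 and 12555 genes reached 1 FPKM in a library of the CK-p25 set and 11754 to 12139 in the P301S set. Read depth is unknown, since the files hold FPKM only. No pair of files held identical values.

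Within every neuron group, the peptide genes stood highest per length, and Pvalb and Calb2 lowest. Sst and Cck held the first 2 places in all 6 groups, Npy the third and Vip the fourth. Gad1, Reln, Gad2, Slc32a1, Pvalb and Calb2 followed in that order in each group. Neighbours in this order were often not separated: the ranges of Sst and Cck overlapped in every group, as did those of Vip and Gad1. In CK libraries the ranges were separate between Gad1 and Reln, between Gad2 and Slc32a1 and between Pvalb and Calb2, where all 5 libraries gave the same order.

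The GABA synthesis genes had overlapping ranges in the 3 groups of each set. Gad1 was at 18.8 ± 1.11 FPKM (SD, n = 5) in CK, 18.1 ± 2.51 in CK-p25 (n = 5) and 22.3 ± 5.25 in CK-p25 GENUS libraries (n = 4). It was at 17.0 ± 3.66 in WT (n = 6), 15.1 ± 2.86 in P301S (n = 6) and 18.3 ± 4.37 in P301S GENUS libraries (n = 5). Gad2, the form enriched at nerve endings, had group means between 9.23 and 11.6 FPKM. Reln, a secreted glycoprotein of layer 1 and of neurogliaform and some Sst cells, was the steadiest, with means from 12.4 to 13.8 FPKM.

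Slc32a1 encodes the only vesicular transporter for GABA. Its libraries were at 6.08, 6.47, 5.31, 7.04 and 7.32 FPKM in CK, 5.86, 10.4, 8.64, 4.99 and 6.80 in CK-p25, and 8.33, 8.91, 8.70 and 10.7 in CK-p25 GENUS. All 4 GENUS libraries lay above all 5 CK libraries, and the untreated CK-p25 libraries overlapped both. In the P301S set the lowest, median and highest libraries were at 7.07, 8.52 and 10.7 FPKM in WT and at 3.11, 5.89 and 8.85 in untreated P301S, and the GENUS libraries were at 8.08, 6.96, 10.1, 8.07 and 9.47. WT and GENUS covered nearly the same range, while untreated P301S reached lower and overlapped both.

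Among the calcium-binding protein genes, Pvalb spread widely inside every group. It was at 2.01, 6.72, 5.66, 3.98 and 9.07 FPKM in CK, 5.68, 7.74, 2.67, 2.03 and 5.03 in CK-p25 and 0.664, 3.68, 8.34 and 4.31 in CK-p25 GENUS. The 3 groups overlapped over most of their ranges. In the P301S set, Pvalb was listed at 0 in 2 of 6 WT libraries and reached 10.4 FPKM in another, against 0.808 to 4.75 (median 1.42) in untreated P301S and 2.85, 1.70, 14.2, 3.40 and 7.45 in P301S GENUS. Calb2 was near the limit of these files, listed at 0 in 6 of the 31 neuron libraries and at most at 4.18 FPKM, so its differences rest on very low values.

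Sst was at 84.4, 107, 87.0, 90.4 and 117 FPKM in CK, at 118, 135, 90.8, 113 and 135 in CK-p25, and at 107, 107, 133 and 150.1 in CK-p25 GENUS. All 5 untreated and all 4 GENUS libraries lay above the CK median, and the groups overlapped. Its P301S-set groups had nearly the same spread, with medians of 141 FPKM in WT, 126 in untreated P301S and 129 in P301S GENUS. Vip was at 16.8, 17.0, 17.8, 25.6 and 42.4 FPKM in CK, with the highest library above the 13 others of the set. Its WT libraries ran from 18.4 to 41.4 FPKM (median 35.9), untreated P301S from 18.9 to 30.1 (median 29.7), and P301S GENUS libraries were at 20.9, 17.1, 38.6, 28.2 and 23.3.

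Cck was at 102, 88.2, 108, 81.3 and 97.9 FPKM in CK, at 85.5, 127, 95.2, 103 and 107 in CK-p25, and at 97.8, 62.0, 57.7 and 109 in CK-p25 GENUS. The GENUS libraries fell into a low pair and a pair inside the range of the other groups. In WT it ran from 136 to 179 FPKM (median 168), in untreated P301S from 76.0 to 206 (median 122), and P301S GENUS libraries were at 92.9, 147, 144, 144 and 149. Every WT library lay above every CK library for Cck, a difference between mouse lines that was not tested, since line, age and any difference in handling cannot be told apart. Npy ran from 39.8 to 101 FPKM in CK, 48.0 to 77.6 in CK-p25 and 59.1 to 75.2 in CK-p25 GENUS. It ran from 42.9 to 90.0 in WT, 42.1 to 81.0 in untreated P301S and 29.6 to 114 in P301S GENUS, the widest spread in the series for this gene.

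**Figure D1:**
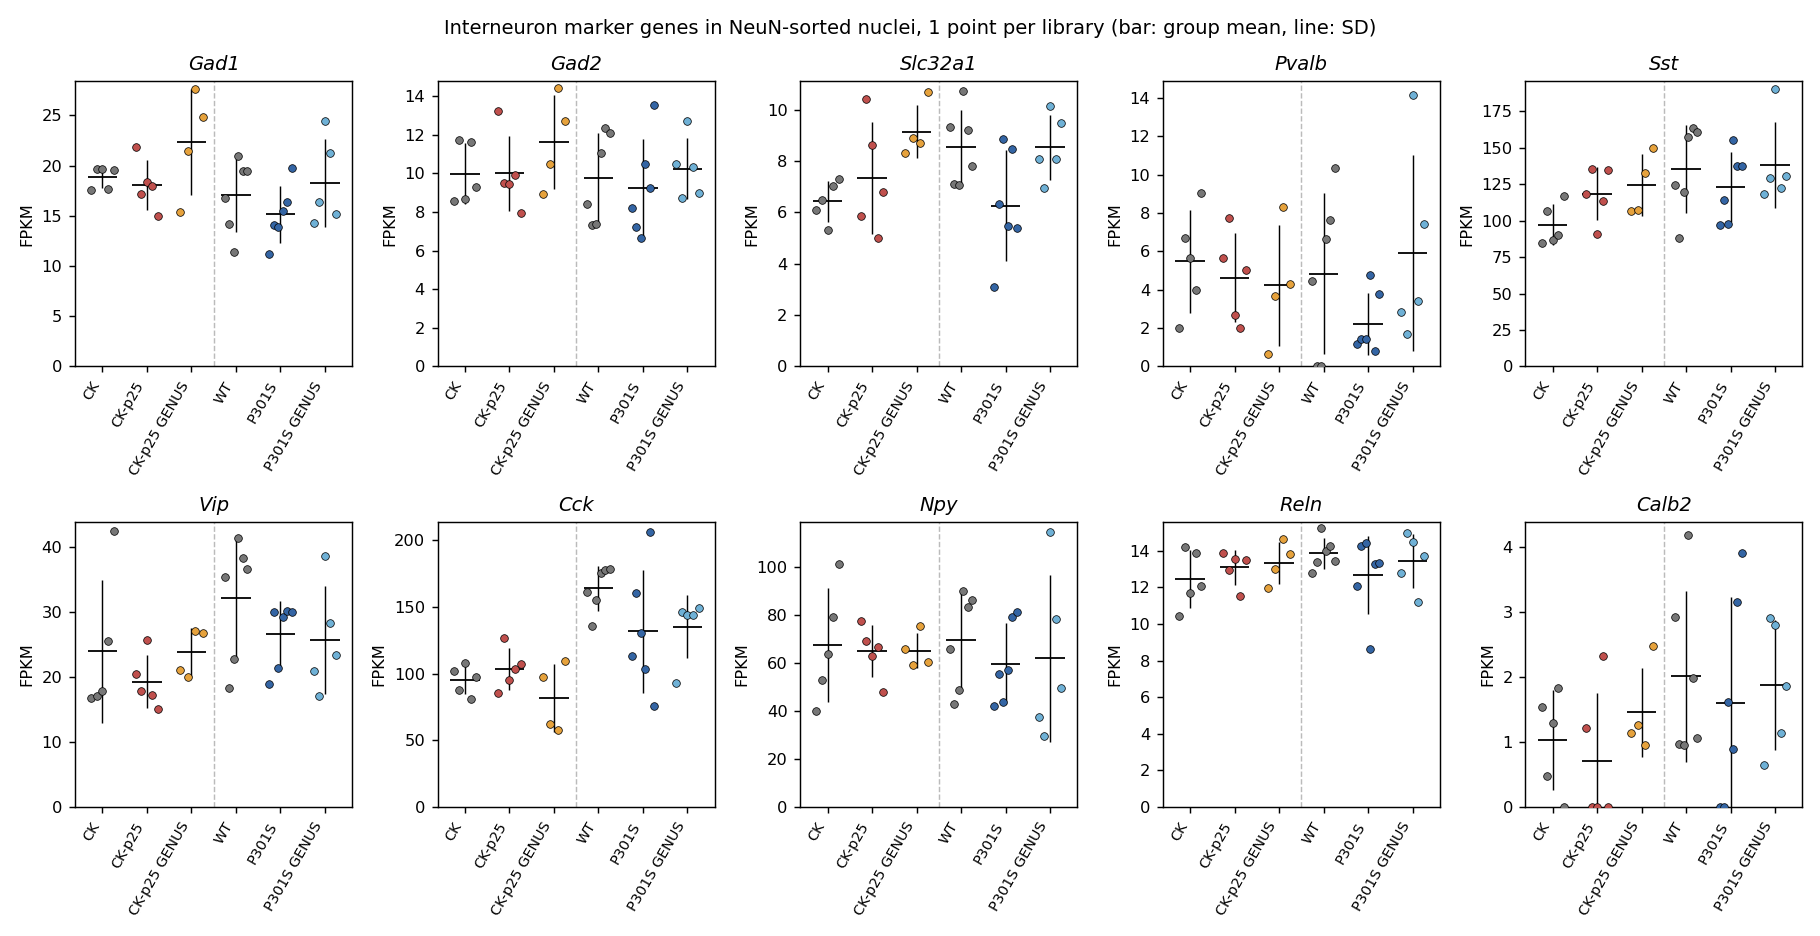
FPKM of each of the 10 genes (y axis, from 0) in every neuron library, by group (x axis), with 1 point per library, a bar at the group mean and a line for the SD; the dashed line divides the CK-p25 set from the P301S set. The groups of a set overlap for all genes, except Slc32a1, where the 4 CK-p25 GENUS libraries (8.33 to 10.7 FPKM) lie above the 5 CK libraries (5.31 to 7.32 FPKM).

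The members also differed in how much they varied inside groups. After removing group means on the log2(FPKM + 1) scale, Reln had an SD of 0.13 in the CK-p25 set and 0.18 in the P301S set, at percentiles 13.5 and 15.9 among all tested genes. Pvalb had SDs of 0.77 and 1.16, at percentiles 95.2 and 97.5, and Calb2 stood at percentiles 93.0 and 92.1. Npy and Vip were also above the median gene (percentiles 70.6 and 82.6 for Npy, 76.3 and 65.8 for Vip). The other 5 members lay between percentiles 40.1 and 58.1 in both sets.

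Libraries of the P301S set stood apart in a measure that the labels do not explain, and most members moved with it. The summed FPKM of 85 ribosomal protein genes was 447 to 577 in 7 libraries and 670 to 1120.5 in the other 10, with a gap between. The 7 were WT replicates 2 and 3, untreated P301S replicates 1, 2 and 3 and P301S GENUS replicates 1 and 2, so 2 of 6, 3 of 6 and 2 of 5 libraries. Npy had a median of 42.9 FPKM in the 7 and 80.04 in the 10, Vip 20.9 and 32.7, Gad1 14.1 and 19.5, and Pvalb 1.41 and 5.69. The 2 WT libraries with Pvalb listed at 0 are both among the 7. Reln did not follow, at 14.2 and 13.4.

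The measure was not particular to interneuron genes. Nrgn, a postsynaptic protein gene of excitatory neurons, ran from 86.1 to 121 FPKM in the 7 libraries and from 130 to 210 in the 10 without overlap, while Slc17a7 had medians of 139 and 138. In the CK-p25 set the same sum was 664 to 860.0 in CK, 547 to 792 in CK-p25 and 646 to 788 in CK-p25 GENUS, with no gap. Its part in the differences below was not tested as a cause, and members are given with it as a covariate and, in the P301S set, within each range of it, where that turns a direction.

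**Figure D2:**
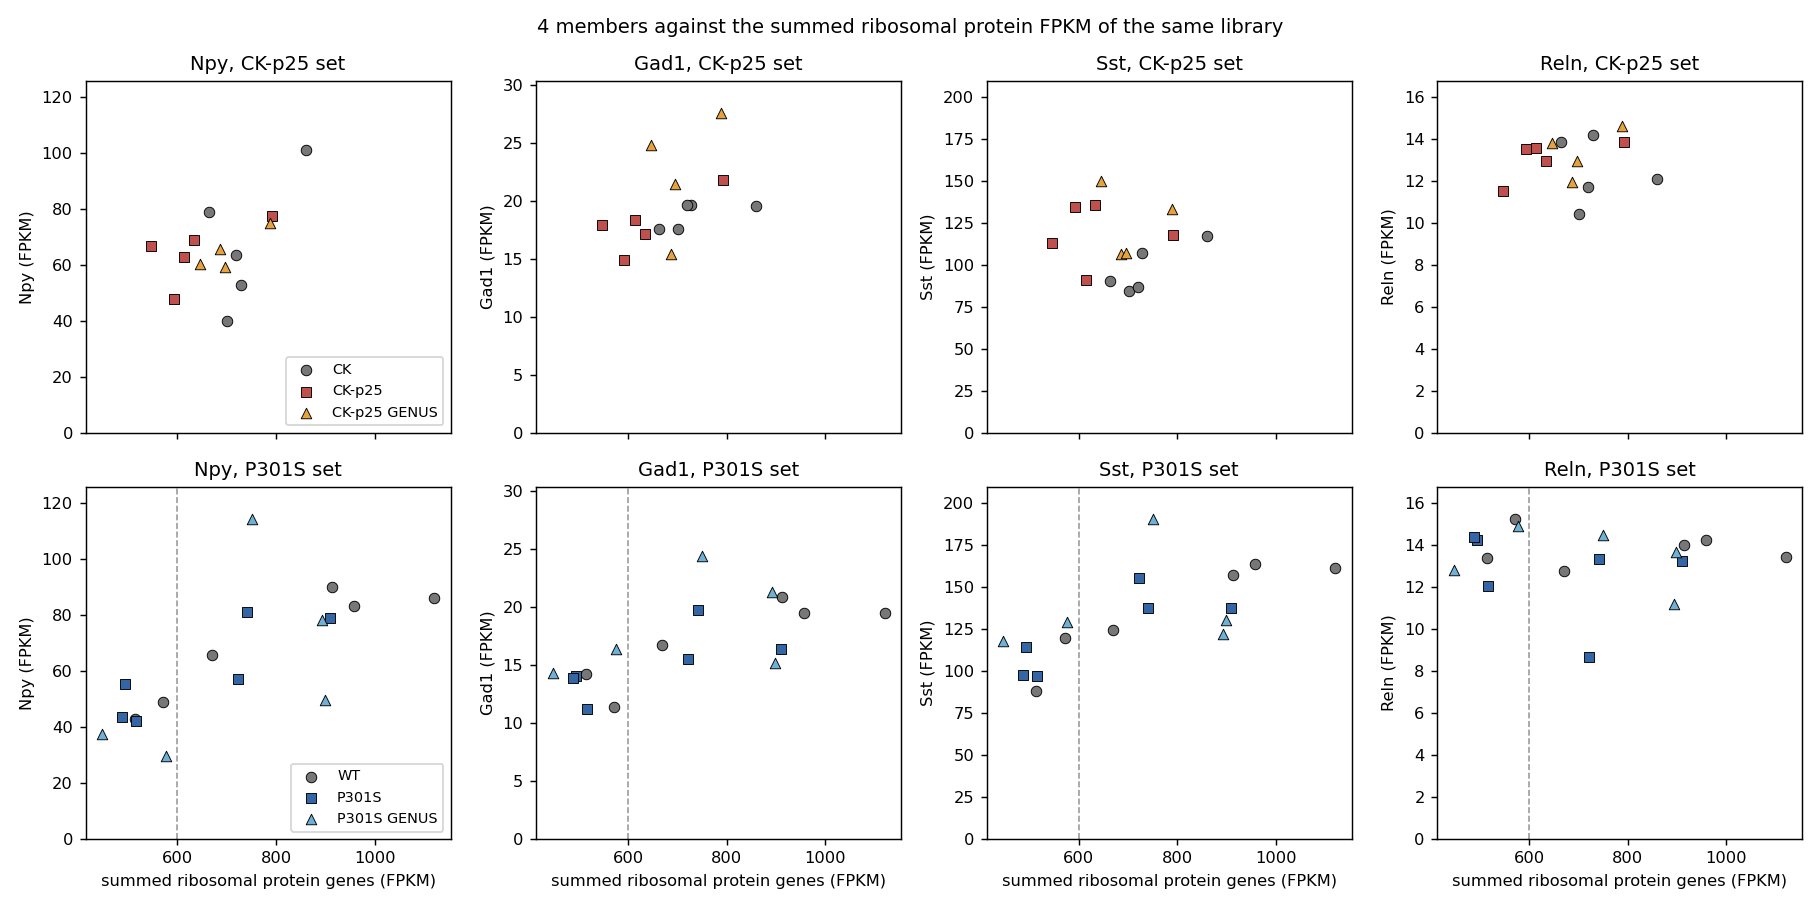
FPKM of Npy, Gad1, Sst and Reln (y axes, from 0) against the summed FPKM of 85 ribosomal protein genes in the same library (x axis), for the CK-p25 set (top) and the P301S set (bottom), with 1 point per library and the dashed line at 600 FPKM. In the P301S set the 7 libraries left of the line have Npy from 29.6 to 55.5 FPKM and the 10 to its right from 49.7 to 114, while Reln has medians of 14.2 and 13.4 FPKM.

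The first comparison asked whether 6 weeks of p25 changed interneuron markers. None of the 10 members passed the test between CK and untreated CK-p25 nuclei, where 127 of 12567 genes did (1.01% at a limma adjusted p under 0.05). Sst came nearest, with a log2 difference of 0.28 (SE 0.13, limma adjusted p = 0.438), a fold of 1.21 with a 95% interval from 1.002 to 1.47. Sst was the 1 member with an unadjusted p under 0.05, against 11.2% of all tested genes, and no member had ranges that did not overlap, against 2.85%. Because these are bulk samples, fewer cells of a type and less RNA per cell cannot be told apart here or below.

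The intervals limit what could have been missed. For Gad1, Gad2, Slc32a1, Sst, Vip, Cck, Npy and Reln the 95% interval lay inside a log2 difference of 1 in either direction. For Gad1 it ran from -0.35 to 0.21 and for Reln from -0.13 to 0.27. For Pvalb it ran from -1.13 to 0.74 and for Calb2 from -1.19 to 0.49, so falls of up to about these sizes lie inside the interval of either gene. The estimates were above 0 for 5 members and below for 5, with a median of -0.00, the same as over all tested genes. With the ribosomal protein sum as a covariate 8 of 10 were above 0, none called, and Gad1, Gad2, Pvalb and Vip turned to 0.08, 0.12, 0.37 and 0.01 and Cck to -0.03.

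Other genes of GABA handling and of interneuron classes were not called after p25 either. In 7 lists no tested gene was called, and list medians ran from -0.24 to 0.15. The lists held other GABA handling and Dlx genes, and genes of the medial (MGE) and caudal (CGE) ganglionic eminence lineages. They also held genes of the Pvalb, Sst, Vip and Cck, and neurogliaform classes. These 7 are called the interneuron lists below, though GABA handling genes such as Slc12a5 and Gphn are not particular to interneurons. Estimates were above 0 for 10 of 14 other GABA genes, 9 of 13 Pvalb class, 5 of 8 Sst class and 4 of 6 CGE genes, and for 3 of 8 MGE, 3 of 8 Vip and Cck class and 2 of 5 neurogliaform genes. The genes named next were chosen for small p-values and were all lower in CK-p25, unlike most genes of the Pvalb and Sst lists. The lowest adjusted p of these was 0.247 for Cox6a2, a muscle-type cytochrome oxidase subunit found in Pvalb cells in mouse brain, at 1.86 ± 0.862 FPKM in CK and 0.357 ± 0.501 in CK-p25 (log2 difference -1.10, SE 0.37). These values are low, and in sorted microglia Cox6a2 had means of 3.91 FPKM in CK and 250 in CK-p25. Kcna1, a potassium channel, stood at 35.7 ± 2.64 and 31.6 ± 1.54 FPKM in the CK and CK-p25 neuron libraries. Cbln4, a synaptic organizer made by Sst cells, was at 3.37 ± 1.63 and 1.76 ± 0.602 FPKM (adjusted p = 0.317), and Calb1, another calcium-binding protein, at 9.35 ± 2.78 and 6.65 ± 2.33. In the neurogliaform list Sv2c was at 8.14 ± 1.06 and 6.12 ± 1.37 FPKM and Lamp5 at 37.1 ± 2.85 and 31.7 ± 5.68.

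Receptors for the members' ligands were not called either (0 of 13 tested), with 9 of 13 estimates above 0 and a median of 0.12. The 2 receptors with the smallest p were among the 4 below 0. Cckbr, the main brain receptor for cholecystokinin, was at 32.1 ± 2.22 FPKM in CK and 25.9 ± 2.70 in CK-p25 (log2 difference -0.30, SE 0.11, adjusted p = 0.312), and Npy1r at 8.88 ± 1.58 and 6.71 ± 1.43. Beside these values, markers of glia moved with p25. Gfap and C1qc rose (adjusted p = 0.000456 and 0.00709). The summed microglial markers (12 genes) were 7.56 to 12.9 FPKM in CK and 12.01 to 21.0 in CK-p25, the summed astrocyte markers (12 genes) 164 to 202 and 166 to 227. Tubb3, a neuronal tubulin, fell (log2 difference -0.65, adjusted p = 0.0209), and of 10 pan-neuronal genes 1 had an estimate above 0, with a median of -0.24 and 6 at an unadjusted p under 0.05. Of the 12 microglial genes, 10 had group means under 1 FPKM in CK and 8 in CK-p25. Their part in the members' values was not tested.

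The second comparison asked what GENUS did in CK-p25 mice. No gene passed the test (0% of 12567 genes, and 933 genes, 7.42%, had an unadjusted p under 0.05), so none of the 10 members did. Slc32a1 was higher than the untreated median in 4 of 4 GENUS libraries (log2 difference 0.32, SE 0.17, limma adjusted p = 0.723), and Gad1 in 3 of 4 (0.27, SE 0.14, adjusted p = 0.701). Vip was above the untreated median in 4 of 4 libraries (0.30, SE 0.23) and did not pass the test. Calb2 was at 0.68 (SE 0.42), also not past the test, against an untreated group with 3 of 5 libraries listed at 0. Its mean over the set was 1.04 FPKM, just above the filter of 1 FPKM, and without GENUS replicate 4 it was not tested. Cck was the 1 member with an unadjusted p under 0.05, at -0.38 (SE 0.17, adjusted p = 0.655), with GENUS replicates 2 and 3 lowest at 62.0 and 57.7 FPKM.

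No member had separate ranges, against 2.58% of all tested genes. Estimates were above 0 for 8 of 10 members, Calb2 among them, with a median of 0.13. Over all tested genes the median was 0 and 49.8% lay above 0. Pvalb, at -0.24 (SE 0.46), had an interval from -1.23 to 0.75, and turned to 0.23 without GENUS replicate 1, its lowest library at 0.664 FPKM. With the ribosomal protein sum as a covariate 6 of 10 members were above 0, and Npy and Reln turned to -0.16 and -0.01.

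Apart from the neurogliaform list, which is not given here, the interneuron lists had medians above 0 in this comparison too, and again no gene was called. All 8 tested MGE genes had estimates above 0 (median 0.19), as did 5 of 6 CGE genes (0.25), 11 of 14 other GABA genes (0.11), 10 of 13 Pvalb class genes (0.09), and 5 of 8 in both the Sst class (0.10) and the Vip and Cck class (0.12). Dlx1, a transcription factor of forebrain interneurons, was at 4.78 ± 1.06 FPKM untreated and 8.11 ± 0.684 after GENUS (log2 difference 0.67, SE 0.23, adjusted p = 0.566). Of the MGE genes, Satb1 was at 30.2 ± 2.27 and 34.4 ± 2.44 FPKM and Maf at 7.31 ± 1.89 and 10.5 ± 2.87. Ank1, an ankyrin, was at 11.2 ± 0.950 and 15.0 ± 1.98 FPKM (adjusted p = 0.473).

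Markers of other cells moved with this comparison. The 11 summed genes of striatal projection neurons, which are GABAergic cells outside the cortex, were at 84.3 to 99.8 FPKM in untreated and 51.0 to 69.4 in GENUS libraries, without overlap, with a list median of -0.41 and 1 of 7 tested genes above 0. Pde10a, a phosphodiesterase of these cells, was at 39.9 ± 4.03 and 22.8 ± 3.13 FPKM (adjusted p = 0.253) and Rgs9 at 25.9 ± 3.45 and 17.9 ± 2.87. Summed astrocyte markers were 166 to 227 and 218 to 356 FPKM and summed microglial markers 12.01 to 21.0 and 20.0 to 30.2. Their part in the interneuron values was not tested.

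Set against CK, the stimulated CK-p25 nuclei had 183 called genes of 12567 (1.46%), and again none of the 10 members was among them. This comparison shares its CK libraries with the first. Slc32a1 had the lowest adjusted p of the members, with a log2 difference of 0.45 (SE 0.17, limma adjusted p = 0.229), a fold of 1.37 and a 95% interval from 1.06 to 1.76. It was the 1 member of 10 whose ranges did not overlap, where 6.29% of all tested genes had such ranges. Sst followed at 0.35 (SE 0.14, adjusted p = 0.251). These were the 2 members with an unadjusted p under 0.05, against 14.4% of all tested genes.

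Estimates were above 0 for 12 of 14 other GABA genes, 8 of 8 MGE, 5 of 6 CGE and 9 of 13 Pvalb class genes. The same held for 6 of 8 Sst class, 5 of 8 Vip and Cck class and 1 of 5 neurogliaform genes, and for 8 of 13 receptors. These are counts and not tests, and the share of all tested genes above 0 is not given beside them. Among the other GABA genes, Slc12a5, the chloride exporter that lets GABA inhibit, was at 55.8 ± 4.41 FPKM in CK and 65.04 ± 4.86 in GENUS libraries (adjusted p = 0.134). Ank1 of the Pvalb class came nearest to the threshold of all interneuron list genes, at 10.9 ± 0.859 and 15.0 ± 1.98 FPKM (log2 difference 0.42, SE 0.10, adjusted p = 0.0524). Kcnc1, a fast potassium channel of Pvalb cells, was at 48.0 ± 3.91 and 56.6 ± 4.35 FPKM (adjusted p = 0.147). Among receptors, Cckbr was at 32.1 ± 2.22 and 22.9 ± 4.94 FPKM (log2 difference -0.49, SE 0.12, adjusted p = 0.0570) and Npy5r at 1.64 ± 0.685 and 3.43 ± 0.801 (adjusted p = 0.122).

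In the same comparison the striatal genes Ppp1r1b and Pde10a fell (log2 differences -1.19 and -0.64, adjusted p = 0.00313 and 0.0345), and Gfap, C1qc and C1qa rose. Summed striatal markers were 77.0 to 109 FPKM in CK, above all GENUS libraries. Among excitatory neuron markers none of 15 was called, with Foxp2 at 7.48 ± 0.747 and 4.80 ± 0.968 FPKM (adjusted p = 0.108).

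**Figure D3:**
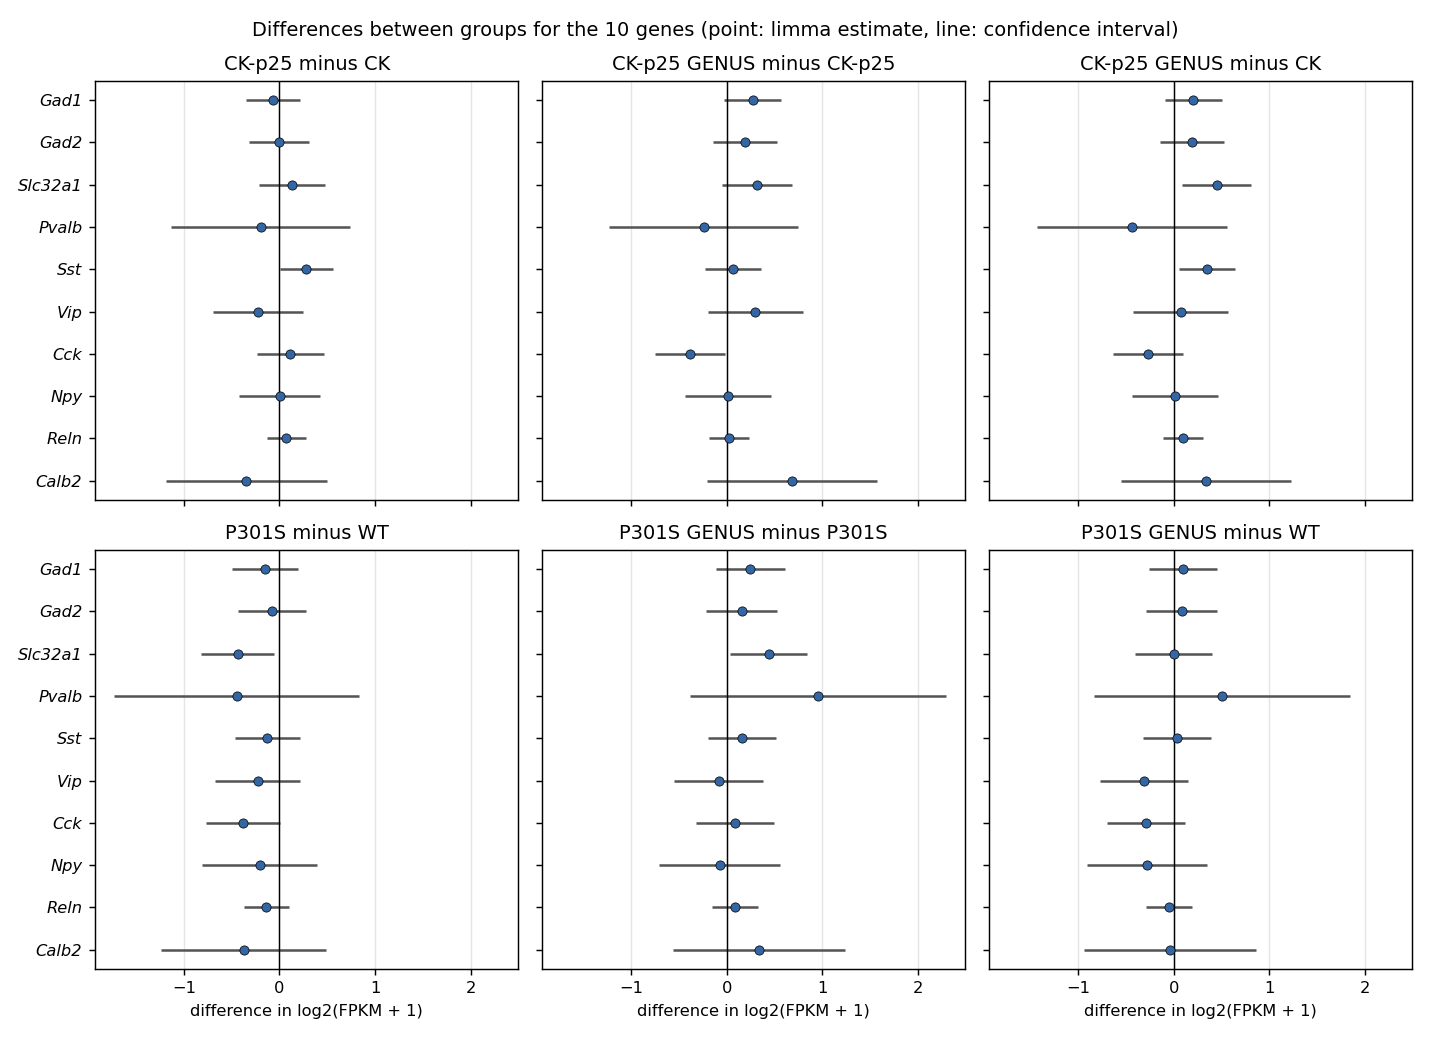
Differences in log2(FPKM + 1) between groups (x axis) for the 10 genes (y axis), with 1 panel per comparison, points for the limma estimates and lines for their 95% intervals. No gene passed the test in any panel; intervals are narrow for Reln and wide for Pvalb and Calb2, and all 10 points lie left of 0 in the panel of P301S minus WT.

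The third pair of groups asked what mutant tau did at 8 months. In untreated P301S against WT, 1 of 12239 genes was called (0.00817%), Nmb, which encodes the peptide neuromedin B and is not a member. All 10 members had estimates below 0, with a median of -0.22, where the median over all tested genes was 0.01 and 51.3% lay above 0. The largest with a narrow interval was Slc32a1 at -0.44 (SE 0.18, limma adjusted p = 0.856), a fold of 0.738 with a 95% interval from 0.566 to 0.964. Cck followed at -0.38 (SE 0.18, adjusted p = 0.869). Slc32a1 was the 1 member with an unadjusted p under 0.05, against 5.64% of all tested genes, and no member had separate ranges, against 0.278%.

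The shared direction depended on how the ribosomal protein level of the libraries entered the fit. With its 2 ranges as a term 0 of 10 members were above 0, as without it, with a median of -0.14. With the sum as a covariate 4 of 10 members were above 0 with a median of -0.03, and Gad2, Pvalb, Sst and Npy turned to 0.05, 0.06, 0.02 and 0.06. Within the 10 libraries of at least 600 FPKM 2 of 10 members were above 0 (median -0.20), and within the 7 under 600, 6 of 10 (median 0.00). The genes are also not independent of each other across libraries, so 10 of 10 in 1 direction is a count and not a test. Slc32a1 and Cck stayed below 0 in each of these fits. Leaving out P301S replicate 1, its lowest library at 3.11 FPKM, moved Slc32a1 to -0.28.

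Of the interneuron lists in P301S, the MGE and Pvalb class genes were evenly split around 0. Most other GABA, Sst class and CGE genes lay below it. The Vip and Cck class and neurogliaform lists are not counted here. Estimates were above 0 for 4 of 8 MGE genes (median 0.04), 7 of 14 Pvalb class genes (-0.00), 4 of 13 other GABA genes (-0.06), 1 of 8 Sst class genes (-0.08) and 1 of 6 CGE genes (-0.13), and none was called. Gphn, the scaffold of inhibitory synapses, was at 29.1 ± 3.14 FPKM in WT and 34.8 ± 4.82 in P301S (log2 difference 0.25, SE 0.10, adjusted p = 0.856). Syt2, a fast synaptotagmin of Pvalb cell terminals, was at 8.54 ± 2.48 and 5.89 ± 1.28 FPKM, and Pdyn, the prodynorphin gene found in some Sst cells, at 5.14 ± 1.56 and 3.44 ± 0.707. Npy2r, a receptor for neuropeptide Y, was at 2.10 ± 0.837 and 1.15 ± 0.740 FPKM. Pan-neuronal genes lay on the same side, 2 of 10 above 0 with a median of -0.16.

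The fourth comparison asked what GENUS did in P301S mice, and it shares the untreated libraries with the third. No gene was called (0% of 12239 genes, and 524 genes, 4.28%, had an unadjusted p under 0.05). Slc32a1 was above the untreated median in 5 of 5 GENUS libraries, at a log2 difference of 0.44 (SE 0.19, limma adjusted p = 0.999), and was the 1 member with an unadjusted p under 0.05. Its fold was 1.36 with a 95% interval from 1.03 to 1.79, and the ranges overlapped. The untreated group holds replicate 1, the lowest library at 3.11 FPKM. Leaving that library out moved Slc32a1 toward 0 in P301S against WT. No member had separate ranges, against 0.433% of all tested genes. Pvalb was also above the untreated median in 5 of 5 libraries, at 0.95 (SE 0.64), with an interval from -0.39 to 2.29 and 1 library at 14.2 FPKM far above the rest.

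Estimates were above 0 for 8 of 10 members, with Vip at -0.08 (SE 0.22) and Npy at -0.07 (SE 0.30) below. This is a count and not a test, and the share of all tested genes above 0 is not given beside it. Gad1 was at 0.25 (SE 0.17), Sst at 0.16 (SE 0.17) and Reln at 0.09 (SE 0.12). With the ribosomal protein sum as a covariate 8 of 10 stayed above 0. Within the libraries of at least 600 FPKM Gad2, Npy and Calb2 turned to -0.05, 0.09 and -0.24, and within those under 600 Cck turned to -0.19. The list medians lay between -0.02 and 0.10 for the 7 interneuron lists, and at -0.04 for the receptors. Tac2, which encodes neurokinin B and is found in some Vip cells, was at 3.96 ± 2.40 FPKM untreated and 8.69 ± 1.65 after GENUS (log2 difference 1.19, SE 0.48, limma adjusted p = 0.999). Syt2 was at 5.89 ± 1.28 and 8.13 ± 1.33 FPKM.

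Against WT, stimulated P301S nuclei had no called gene (0% of 12239 genes, and 701 genes, 5.73%, had an unadjusted p under 0.05), and no member passed even that unadjusted level. No member had separate ranges, against 0.515% of all tested genes. Slc32a1 stood at 0.00 (SE 0.19), with an interval from -0.40 to 0.41. Vip was at -0.31 (SE 0.22) and Cck at -0.29 (SE 0.19), and 0 of 5 GENUS libraries lay above the WT median for Cck. Estimates were above 0 for 5 of 10 members, with a median of -0.02.

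**Figure D4:**
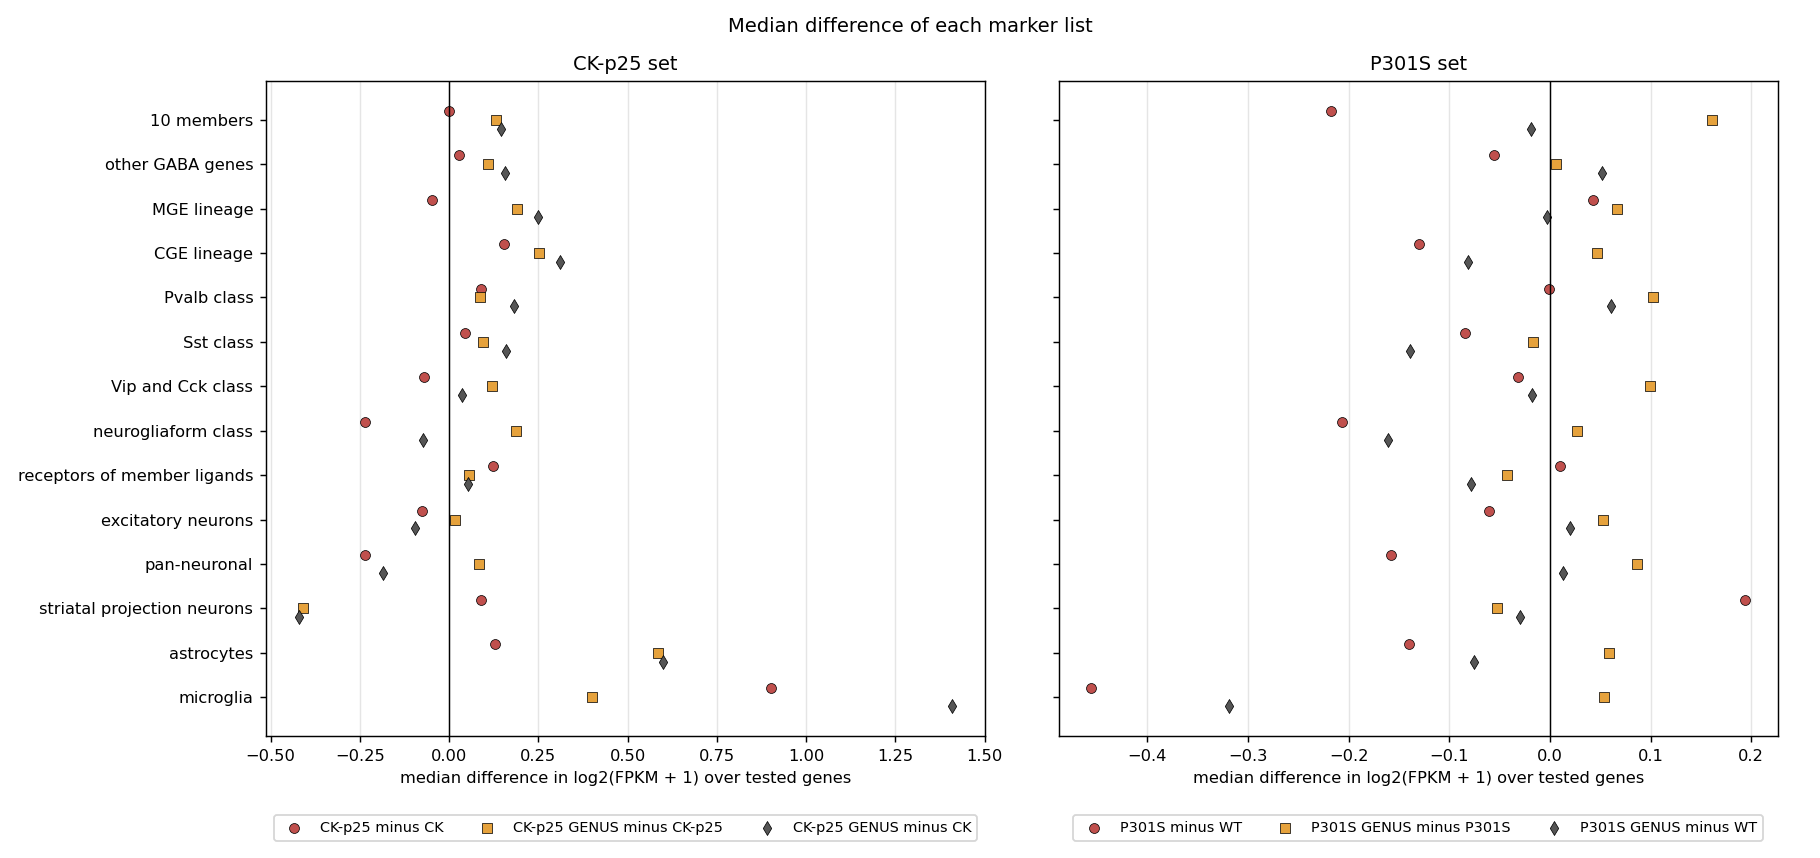
Median difference in log2(FPKM + 1) over the tested genes of each marker list (x axis) by list (y axis), with 1 symbol per comparison, for the CK-p25 set (left) and the P301S set (right); the x axes differ in scale. In the CK-p25 set the interneuron lists lie between -0.24 and 0.31, while the striatal list lies at -0.41 and -0.42 in both GENUS comparisons and astrocyte and microglial lists lie to the right.

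Whether the models differed was tested as a difference of differences over all 6 neuron groups. For p25 minus tau, 35 of 12460 genes were called (0.281%), none of them a member. Slc32a1 had the lowest adjusted p of the members (0.57, SE 0.25, limma adjusted p = 0.647), with a difference of 0.13 for p25 and -0.44 for tau, and was the 1 member with an unadjusted p under 0.05, against 6.83% of all tested genes. Cck was at 0.49 (SE 0.26) and Sst at 0.41 (SE 0.22). For the GENUS effect in CK-p25 minus that in P301S no gene was called (0% of 12460 genes, and 542 genes, 4.35%, had an unadjusted p under 0.05), and no member was among those 542. Pvalb was at -1.19 (SE 0.86), with an interval from -2.95 to 0.57, and Cck at -0.47 (SE 0.28).

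Within groups, some members varied together from library to library. In the CK-p25 set, over 14 libraries with group means removed, 31 of the 45 pairs had a correlation above 0, with a median of 0.27. Gad1 and Gad2 had r = 0.79, Vip and Npy 0.78, Pvalb and Sst 0.70 and Gad2 and Reln 0.69. In the P301S set, over 17 libraries with the means of group and ribosomal protein range removed, 35 of 45 lay above 0, with a median of 0.30. Vip and Npy had r = 0.84 there, Gad1 and Npy 0.73, Sst and Vip 0.69 and Reln and Calb2 0.68.

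The pairs Vip with Npy and Pvalb with Sst (0.70 and 0.61) were above 0.6 in both sets. Cck and Gad2 had r = -0.50 in the CK-p25 set and -0.51 in the P301S set, while Cck and Slc32a1 had 0.26 and 0.43, and Cck and Reln -0.44 and 0.34. Slc32a1 had -0.02 with Gad1 and -0.00 with Gad2 in the CK-p25 set, and 0.24 and -0.38 in the P301S set. The sets differ in what was removed. With group means alone removed in the P301S set, as in the CK-p25 set, Slc32a1 had 0.46 with Gad1 and 0.07 with Gad2. On that measure Cck and Gad2 had -0.23, Vip and Npy 0.92 and Pvalb and Sst 0.79. There 38 of 45 pairs lay above 0, with a median of 0.43. The pairs share libraries and their composition, so the values are descriptions.

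**Figure D5:**
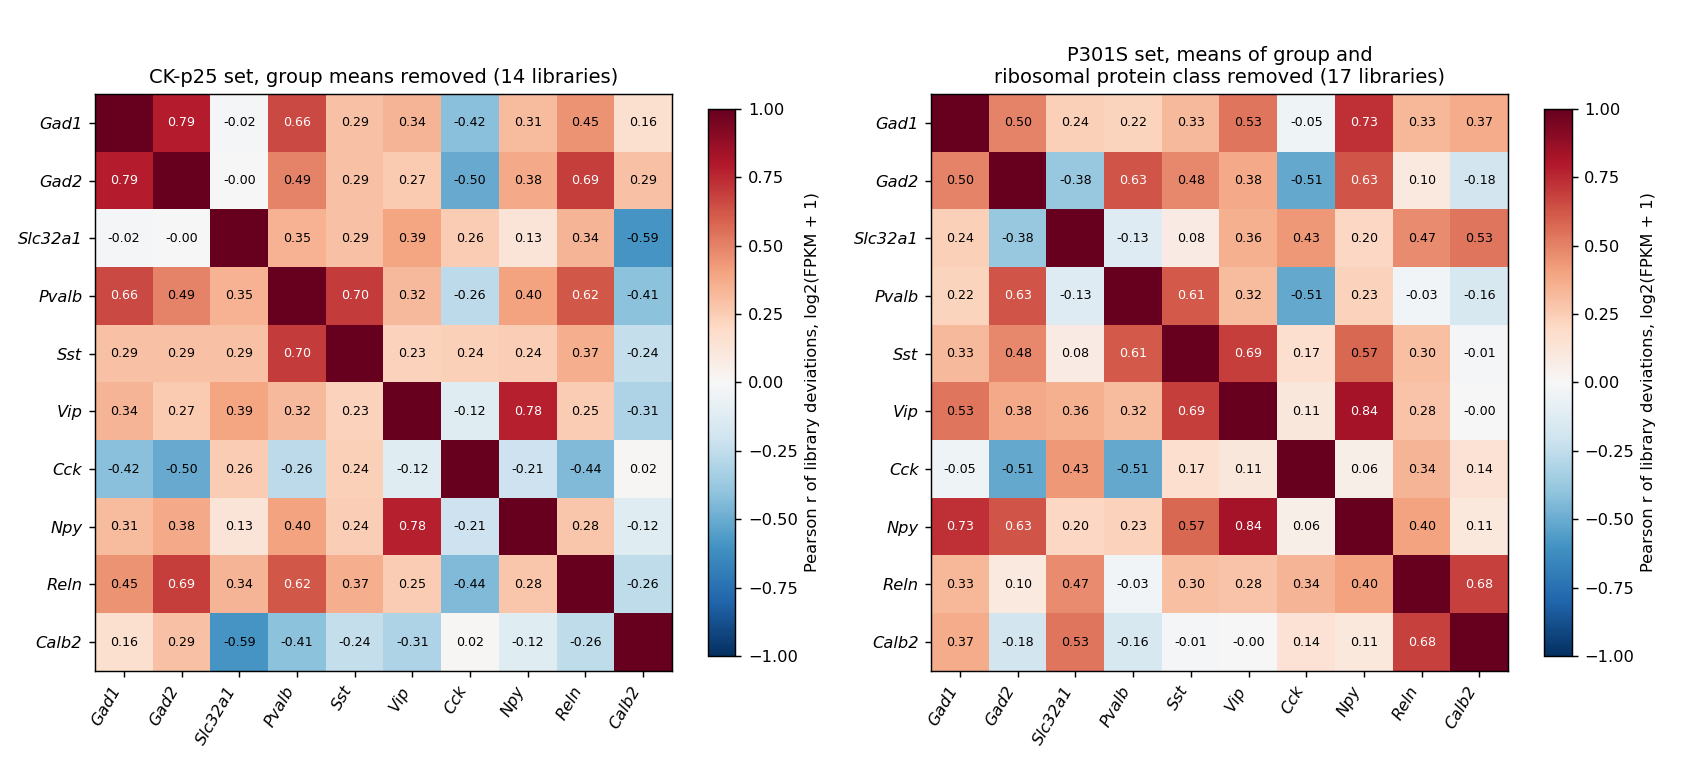
Pearson correlation of library deviations in log2(FPKM + 1) between each pair of the 10 genes (both axes), for 14 CK-p25-set libraries with group means removed (left) and 17 P301S-set libraries with the means of group and ribosomal protein range removed (right); colour and printed numbers give r. Vip with Npy is high in both panels (0.78 and 0.84) and Gad2 with Cck is low in both (-0.50 and -0.51).

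Across all 31 neuron libraries, the 3 genes most like each member were sought among 8045 genes of at least 5 FPKM on average. The measure was the Pearson correlation of log2(FPKM + 1) with group means removed. Npy was nearest to Purb (r = 0.84), Sparcl1 (0.83) and Sept7 (0.82). Vip was nearest to Scg2 (0.82), which encodes a secretory granule protein, then Sparcl1 and Canx, both at 0.77. These neighbours also followed the ribosomal protein sum, at 0.85 for Npy's nearest, Purb, and 0.71 for Scg2. For Sst the nearest was Olfm3 (0.79), for Gad1 Cplx1 (0.78), a complexin of the release machinery, for Gad2 Mapk8 (0.78) and for Pvalb Ppp2r4 (0.78). Cplx1 and Olfm3 followed the same sum at 0.89 and 0.75, and Mapk8 and Ppp2r4 at 0.52 and 0.50. Cck was nearest to Cx3cl1 (0.74), Slc32a1 to Cntn1 (0.68), Reln to Coq2 (0.65) and Calb2 to Usp39 (0.64). Their correlations with the sum ran from 0.11 for Coq2 to 0.51 for Cntn1. The libraries share composition, so these are descriptions.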

How the data were processed

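Libraries of sorted neuronal nuclei and microglia were measured by RNA sequencing. The authors deposited FPKM values for each library, and the submitters' processing notes list STAR, Cufflinks 2.0.0 and mm9 without giving their roles. Read depth is unknown, so no counting interval is given, and an exact 0 is only a listing. From these FPKM values, log2(FPKM + 1) was computed and genes with a mean of at least 1 FPKM over a set were kept. Differences were tested with limma 3.58.1 in R 4.3.3, with 3 groups per fit, a mean-dependent prior, and Benjamini-Hochberg adjustment over all tested genes at 0.05. Fold changes are on the log2(FPKM + 1) scale and understate changes of low genes. Both differences between sets used all 6 neuron groups in 1 fit. The script was tested on simulated data. Libraries were grouped by their labels. The named genes are the members, the genes most like them and, from marker lists, those with the smallest p in a comparison or called; others were named after their values were seen. Members and lists were chosen with earlier results of these data known. The alternatives were other pseudocounts and filters, other sets of groups, a replicate block, libraries left out and, added after seeing the data, adjustment for the ribosomal protein sum. mm9 coordinates were not used here. 1 gene of the marker lists is not reported here by name.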

Additional observations from a re-analysis of the deposited data

Results flagged for a closer look

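Of 60 combinations of member and group, 2 had a library far from the others of its group by Dixon's test, which chance gives in about 1 of 20 groups. Sst in P301S GENUS replicate 3 was at 190.4 FPKM, with the nearest library at 130.5. Cck in P301S GENUS replicate 1 was at 92.9 FPKM, with the nearest at 144.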

How the results depend on the processing

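No member was called in any of 169 alternative fits, where calls were counted over all members that passed the filter. Of 1665 member values 1536 kept their direction, and 129, all uncalled, turned sign. The lowest adjusted p (limma) over all 1665 values was 0.158, and the cause of the turns was not tested. Pvalb and Calb2 could not be tested at a mean of at least 5 FPKM. In the CK-p25 set Calb2 was also not tested without CK replicate 1 or 4, CK-p25 replicate 4 or GENUS replicate 4. With only CK and CK-p25 fitted it was not tested either. With the ribosomal protein sum as a covariate, the turned log2 differences were Gad1 0.0764, Gad2 0.12, Pvalb 0.37, Vip 0.00615, Cck -0.0336 in CK-p25 against CK, and Npy -0.16, Reln -0.00780 in CK-p25 GENUS against CK-p25, and Gad2 0.0534, Pvalb 0.0574, Sst 0.0184, Npy 0.0648 in P301S against WT, and Calb2 0.0770 in P301S GENUS against WT. With a pseudocount of 0.1, the turned log2 differences were Pvalb 0.17 in P301S against WT, and Pvalb -0.40, Vip -0.000792, Calb2 -0.0468 in the p25 minus tau difference. In libraries of at least 600 FPKM, the turned log2 differences were Gad2 0.0124, Calb2 0.0142 in P301S against WT, and Gad2 -0.0478, Npy 0.0924, Calb2 -0.24 in P301S GENUS against P301S, and Gad2 -0.0354, Slc32a1 -0.00461, Sst -0.0572 in P301S GENUS against WT. In libraries under 600 FPKM, the turned log2 differences were Gad1 0.0280, Gad2 0.00256, Pvalb 1.22, Sst 0.00209, Vip 0.16, Npy 0.0273 in P301S against WT, and Cck -0.19 in P301S GENUS against P301S, and Calb2 0.37 in P301S GENUS against WT. With the replicate block, the turned log2 differences were Npy 0.0105 in P301S GENUS against P301S, and Slc32a1 -0.0202, Calb2 0.0346 in P301S GENUS against WT. With the 2 ranges of that sum as a term, the turned log2 differences were Calb2 0.0124 in P301S GENUS against WT. Correlations of same-numbered deviations ran from -0.10 to 0.06 in the CK-p25 set, where 3 of 13 pairs were best matched by their own number. In the P301S set they ran from -0.05 to 0.11, with 8 of 16 best matched. The P301S-set libraries under 600 FPKM all had replicate numbers from 1 to 3. Whether replicate numbers share a structure in that set was not tested. The block changed no member's call. Leaving out 1 library at a time gave these ranges where a sign turned. In P301S GENUS against WT they were Calb2 -0.17 to 0.14, Gad1 -0.0103 to 0.17, Reln -0.0847 to 0.0117, Slc32a1 -0.0557 to 0.0658, Sst -0.0854 to 0.0963. In the p25 minus tau difference they were Calb2 -0.26 to 0.27, Gad2 -0.0217 to 0.18, Pvalb -0.0498 to 0.65, Vip -0.10 to 0.22. In P301S GENUS against P301S they were Cck -0.0545 to 0.23, Npy -0.34 to 0.14, Reln -0.00784 to 0.15, Vip -0.24 to 0.0433. In the difference between GENUS effects they were Gad1 -0.0843 to 0.18, Gad2 -0.0715 to 0.15, Npy -0.13 to 0.35, Reln -0.12 to 0.0333, Slc32a1 -0.23 to 0.0305, Sst -0.19 to 0.0272. In CK-p25 against CK they were Gad2 -0.0991 to 0.0689, Npy -0.17 to 0.16, Pvalb -0.45 to 1.4e-06. In CK-p25 GENUS against CK they were Npy -0.15 to 0.18, Pvalb -0.79 to 0.0346, Vip -0.0265 to 0.29. In CK-p25 GENUS against CK-p25 they were Npy -0.0868 to 0.0839, Pvalb -0.60 to 0.23, Reln -0.0167 to 0.0736, Sst -0.0267 to 0.14. Genes called in CK-p25 against CK fell from 127 to 57 at a mean of at least 5 FPKM, 71 with 2 groups fitted, 75 with 6, 72 with the block and 67 with the covariate. They were 77 without CK-p25 replicate 2 and 149 at most. In CK-p25 GENUS against CK, 183 became 109, 85, 99 and 84 in the first 4 of these, and 92 without GENUS replicate 3. In P301S against WT, 1 became 0 to 5. For p25 minus tau, 35 became 15 with a pseudocount of 0.1, 67 without a filter and 6 at a mean of at least 5, and 21 to 42 with a library left out. In the 4 comparisons with no called gene, alternatives called at most 5. Depth is unknown, and low values limit Pvalb and Calb2.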

Other observations

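Of the members, Cck was the highest in the sorted microglia libraries, with 0.715 to 10.8 FPKM over the 12 libraries, while Sst was at most at 1.20 and Npy at most at 1.07 FPKM.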
